A study of Mus musculus with 14 samples.

Results

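The genes described are the Wnt ligands, the R-spondins, the Frizzled receptors and the secreted Dickkopf and Sfrp inhibitors, followed in lymphatic endothelial cells of 2 sinuses of the mouse lymph node. They were the genes whose array symbol was Wnt, Fzd, Dkk, Sfrp or Rspo with a number and at most 1 letter, which gave 41 of the 34797 gene names on the array: 19 Wnt, 10 Fzd, 4 Dkk, 4 Sfrp and 4 Rspo genes. All 41 accessions on the array led to the same symbol in RefSeq. Cells came from C57Bl/6 mice and were taken from the medullary sinus, on the way out of the node, or from the subcapsular sinus, where lymph enters. In the FACS samples, 1200 cells each were sorted from digested nodes of many sites, including the cervical ones, with a lineage antibody cocktail, antibodies to CD73 and podoplanin and a dead-cell dye, and there were 2 medullary and 2 subcapsular samples. In the LCM samples, 50 cells each were cut by laser capture from frozen sections of inguinal, axillary and brachial nodes stained for CD31 and a macrophage antigen, and there were 5 medullary and 5 subcapsular samples. The RNA was amplified, labelled with Cy3 and put on 1 array per sample, so that there were 14 arrays. The labels call the samples biological replicates but do not tie them to animals, and how CD73 separated the sorted populations is not given in them.

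Wnt proteins are secreted lipid-modified ligands that bind Frizzled receptors on the cell surface. With the co-receptors Lrp5 and Lrp6, a Wnt bound to a Frizzled keeps β-catenin from being degraded, and β-catenin then acts in the nucleus with the DNA-binding factors Lef1 and Tcf7. R-spondins keep Frizzleds on the surface by removing the ligases that degrade them, and Dickkopf proteins such as Dkk1 block Lrp5 and Lrp6. Sfrps resemble the ligand-binding part of a Frizzled and hold Wnts outside the cell. In lymphatic vessels of the mouse this pathway is known for its part in valve formation.

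Each gene was read by 60-base probes, and 7 of the 41 had 2 probes each. The longest run of bases shared by probes of different genes among these 48 was 14, between Fzd7 and Fzd2. Wnt16 was the gene of these families whose sinus difference was called unlike in FACS and LCM, and its 2 probes gave unlike values, so both are shown. Both lie on the forward strand of chromosome 6 (mm9), the brighter at chr6:22247804-22247863 and the other at chr6:22241135-22241194. The sequences are those the scanner files give for the probes.
Wnt16, brighter probe: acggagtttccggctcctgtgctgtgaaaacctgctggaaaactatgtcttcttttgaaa
Wnt16, other probe: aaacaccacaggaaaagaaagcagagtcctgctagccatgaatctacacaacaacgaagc

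A level here is the log2 intensity of a gene's brighter probe minus the 75th percentile of its array, so that 0 is that percentile itself, and levels of different genes are not set against each other. A gene counted as present on an array where the scanner software called its probe well above background. Of the 41 genes, 31 and 25 were above background on the FACS medullary arrays, against 25 and 16 on the FACS subcapsular arrays. In LCM the number was 28, 22, 24, 18 and 23 in medullary samples, against 24, 19, 22, 20 and 24 in subcapsular samples. The share of the 41 lay below the share of all genes on every array, at 39.0% to 75.6% against 57.5% to 82.6%. The plot of shares above background shows all 14 arrays under the line of equal shares.

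**Figure D1:**
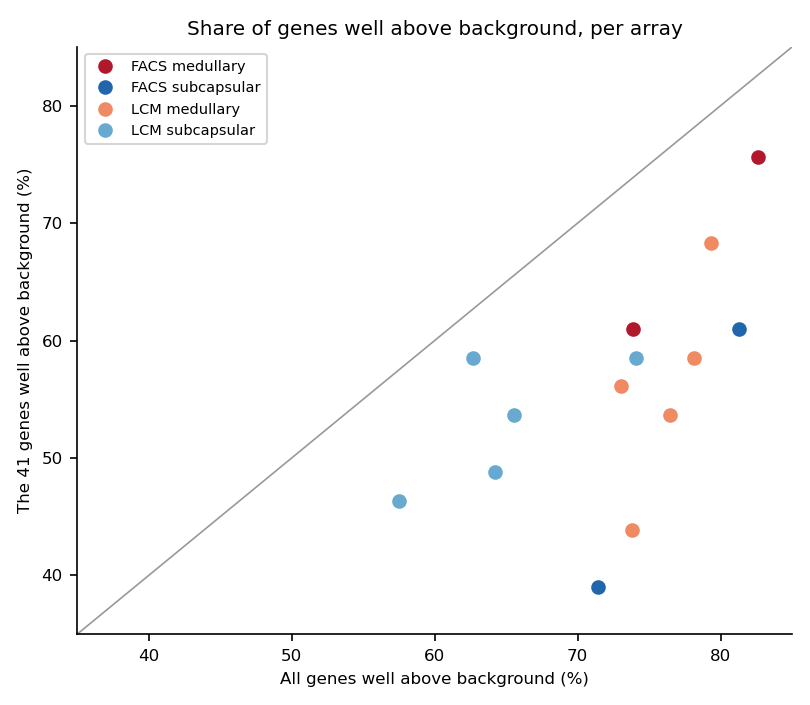
Share of the 41 genes (vertical axis, %) against the share of all 34797 genes (horizontal axis, %) called well above background, 1 point per array, coloured by isolation and sinus; the grey line marks equal shares. All 14 points lie under the line, from 39.0% to 75.6% on the vertical axis.

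The probes of the 41 genes were poorer in G and C than those of all genes, with a median of 38.3% against 43.3%. Over all genes, 22.3% of probes with 35% to 40% GC were above background on all 14 arrays, against 69.5% of those with at least 55%. Among the 41, this held for 3 of 20 probes in the lower class and 4 of 5 in the upper class. The part of base composition in the lower share of these genes was not tested.

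The genes fell into 3 kinds by presence. On all 14 arrays 12 were above background, namely 10 ligands (Wnt1, Wnt4, Wnt5a, Wnt5b, Wnt6, Wnt7a, Wnt8b, Wnt10b, Wnt11 and Wnt16), 1 receptor (Fzd5) and 1 inhibitor (Sfrp5). On 1 to 13 arrays 27 were above background, and Dkk3 and Wnt3a were so on none. The SD within groups of the 12 had a median of 0.88 (0.34 to 1.43), against 2.04 (0.76 to 3.62) for the 27. The 27 were thus present on some samples of a group and absent from others of the same group, as the map of levels by array shows.

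**Figure D2:**
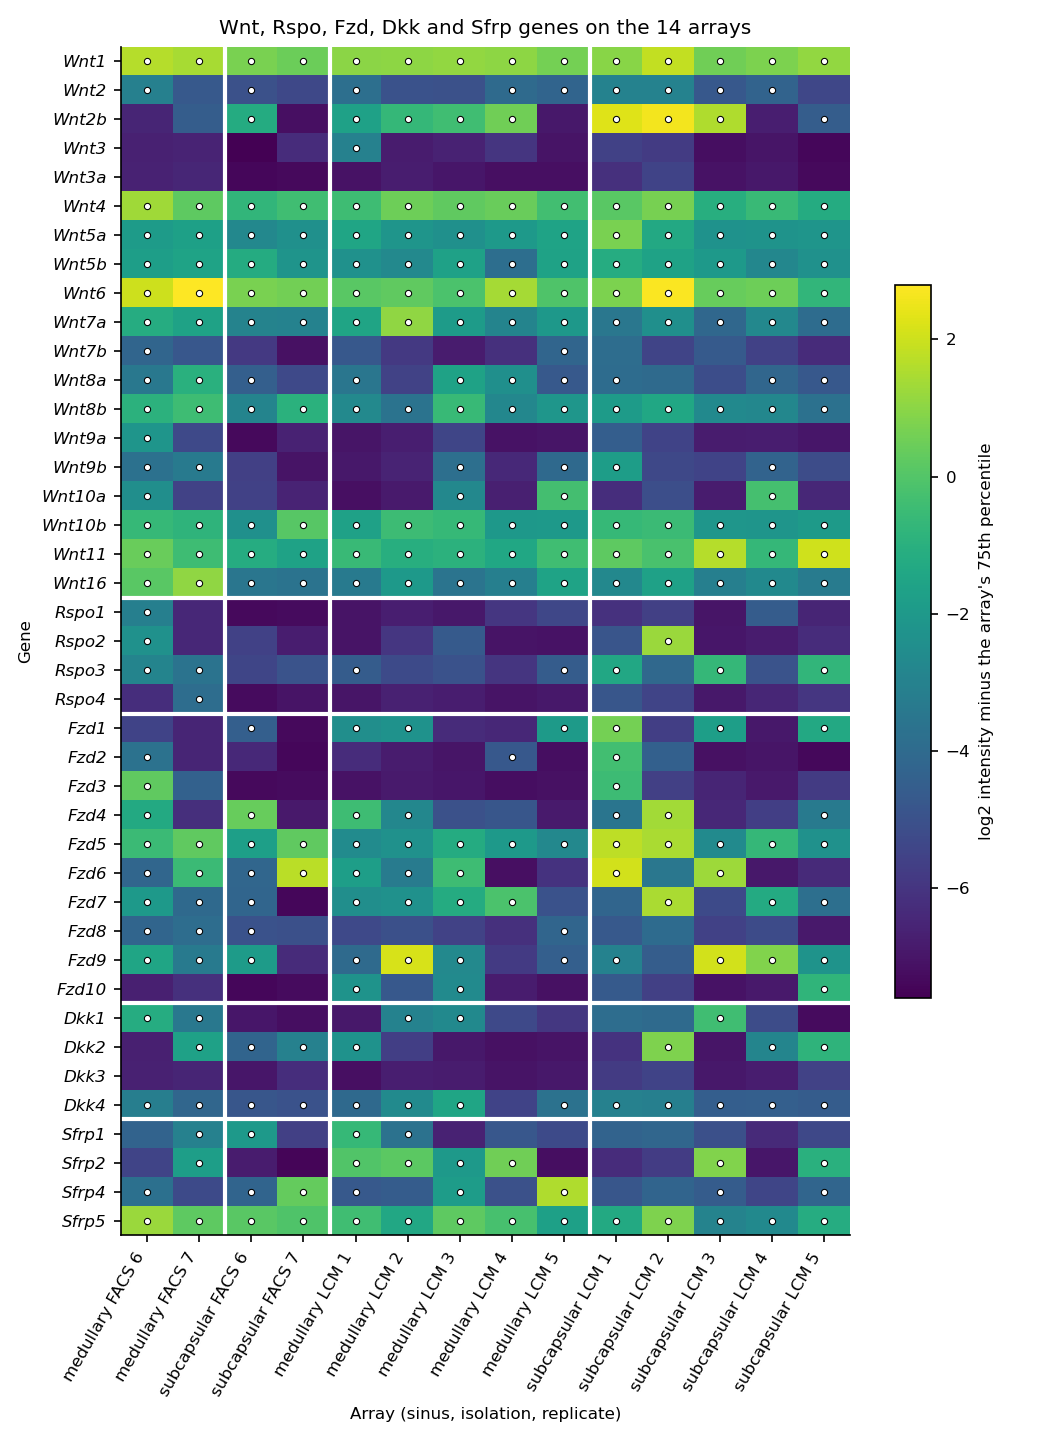
Level of each of the 41 genes (rows, by family) on each array (columns: FACS medullary, FACS subcapsular, LCM medullary, LCM subcapsular), as log2 intensity minus the 75th percentile of the array; a dot marks a probe well above background. The 12 genes with 14 dots have a median range of 3.5 over the arrays, against 6.91 for the 27 with 1 to 13 dots, with exceptions on both sides.

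By family, 73.7% of the gene and array pairs of the Wnt ligands were above background in FACS medullary samples and 60.5% in FACS subcapsular samples. In LCM the ligands stood at 70.5% in medullary and 67.4% in subcapsular samples. The Fzd receptors stood at 65% in FACS medullary and 45% in FACS subcapsular samples, and at 50% in LCM medullary and 46% in LCM subcapsular samples. The R-spondins were above background in 62.5% of pairs in FACS medullary and 0% in FACS subcapsular samples, and in 10% in LCM medullary and 20% in LCM subcapsular samples. These shares come from 4 to 19 genes and are descriptions.

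The samples carried the markers of their label unevenly. Of 11 measured lymphatic endothelial markers, 5 to 7 were above background on the FACS medullary arrays, 8 to 9 on the FACS subcapsular arrays, 8 to 11 in LCM medullary and 5 to 9 in LCM subcapsular samples. Prox1, the transcription factor that sets lymphatic identity, was above background on all 14 arrays. Lyve1, the hyaluronan receptor of lymphatic endothelium, was above background on 0 of 2 FACS medullary, 1 of 2 FACS subcapsular, 3 of 5 LCM medullary and 3 of 5 LCM subcapsular arrays. Pecam1, which encodes CD31, was −3.83 and −3.36 in FACS medullary samples, against 3.97 and 5.27 in FACS subcapsular samples. In LCM it ran from 4.0 to 5.45 in medullary and from 1.12 to 6.83 in subcapsular samples. The summed level of the 11 lymphatic markers, in multiples of the 75th percentile, was 1.98 and 2.75 in FACS medullary and 17.6 and 42.7 in FACS subcapsular samples. It was 25.3 to 59.9 in LCM medullary and 16 to 115 in LCM subcapsular samples. In FACS subcapsular samples the lymphatic sum lay mostly in Pecam1. In LCM medullary samples Pecam1 also had the highest values of the list, with Sox18 next at up to 3.52. In LCM subcapsular samples Pecam1 ran up to 6.83 and Sox18 up to 4.54. Between the FACS groups single markers went both ways. Pecam1, Cdh5, Mmrn1, Sox18 and Tek stood lower in FACS medullary than in FACS subcapsular samples. Pdpn, Flt4 and Reln stood higher, Pdpn at −1.53 to −0.30 against −5.60 to −4.90. Prox1, Lyve1 and Nrp2 overlapped. The summed level of 17 epithelial and salivary gland markers was 120.3 and 438.5 in FACS medullary and 643.9 and 659.6 in FACS subcapsular samples. It was 7.02 to 15.4 in LCM medullary and 4.96 to 14.1 in LCM subcapsular samples. In the FACS subcapsular samples this sum lay mostly in Amy1 (levels 8.52 and 8.58) and Dcpp1 (7.92 and 8.04), both salivary gland genes. In FACS medullary samples Amy1 stood at 6.70 to 7.35 and Dcpp1 at 0.82 to 7.98. Single markers of this list also went both ways between the FACS groups. Cldn4, Krt5, Krt7, Krt14 and Krt19 stood higher in FACS medullary samples, Cldn4 at 1.29 to 1.78 against −3.11 to −1.69. Amy1, Epcam, Krt18, Cdh1 and Prol1 stood lower there, and the others overlapped. The part of these markers in the results below was not tested. The FACS sinus groups also lay in different rows of their slide, so that sinus and row cannot be told apart there. Correlations between arrays of a group ran from 0.656 to 0.851 over genes. In such bulk samples, fewer cells of a type and less RNA per cell cannot be told apart.

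Wnt16 is a ligand known for its part in cortical bone and, in zebrafish, in the making of blood stem cells. Its brighter probe set the FACS medullary samples apart. Its level was 0.15 and 1.07 in FACS medullary samples, against −3.51 and −3.63 in FACS subcapsular samples. In LCM it was −3.33, −2.03, −3.59, −3.09 and −1.58 in medullary samples, against −2.75, −1.65, −3.13, −2.65 and −3.28 in subcapsular samples. The FACS medullary pair lay above the other 12 arrays, and the LCM groups overlapped throughout.

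In FACS the sinus difference of Wnt16 was 4.18 ± 0.64 (SE), or 18.1-fold, and it did not pass the test after adjustment (limma, adjusted p = 0.0738). The median of all tested genes was itself 0.74 higher in FACS medullary samples on this scale, and relative to that median Wnt16 lay 3.45 higher. In LCM the difference was −0.04 ± 0.57 (SE; limma, adjusted p = 0.988). The FACS difference less the LCM difference, called the interaction, was 4.22 ± 0.88 (SE) and passed the test (limma, adjusted p = 0.0393), or 3.70 relative to the median of all tested genes.

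This call was close to the threshold and was lost under 16 of 27 alternatives. It was lost with the other probe (1.67, adjusted p = 0.447) and with the mean of both probes (2.95, adjusted p = 0.0983). It was also lost with the slide as a block (4.48, adjusted p = 0.132), with the row as a block (4.63, adjusted p = 0.0577), and without any 1 of 8 arrays: FACS medullary 7, FACS subcapsular 6 and 7, LCM medullary 1, 3 and 4, and LCM subcapsular 1 and 4 (adjusted p from 0.0533 to 0.24, limma). On the other probe Wnt16 stood at −0.36 and −2.54 in FACS medullary samples, against −1.40 and −3.84 in FACS subcapsular samples, and these groups overlapped. The other probe read −3.37, −3.62, −1.07, −3.05 and −3.32 in LCM medullary samples, against −2.26, −1.79, −3.46, −1.52 and −2.90 in LCM subcapsular samples.

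**Figure D3:**
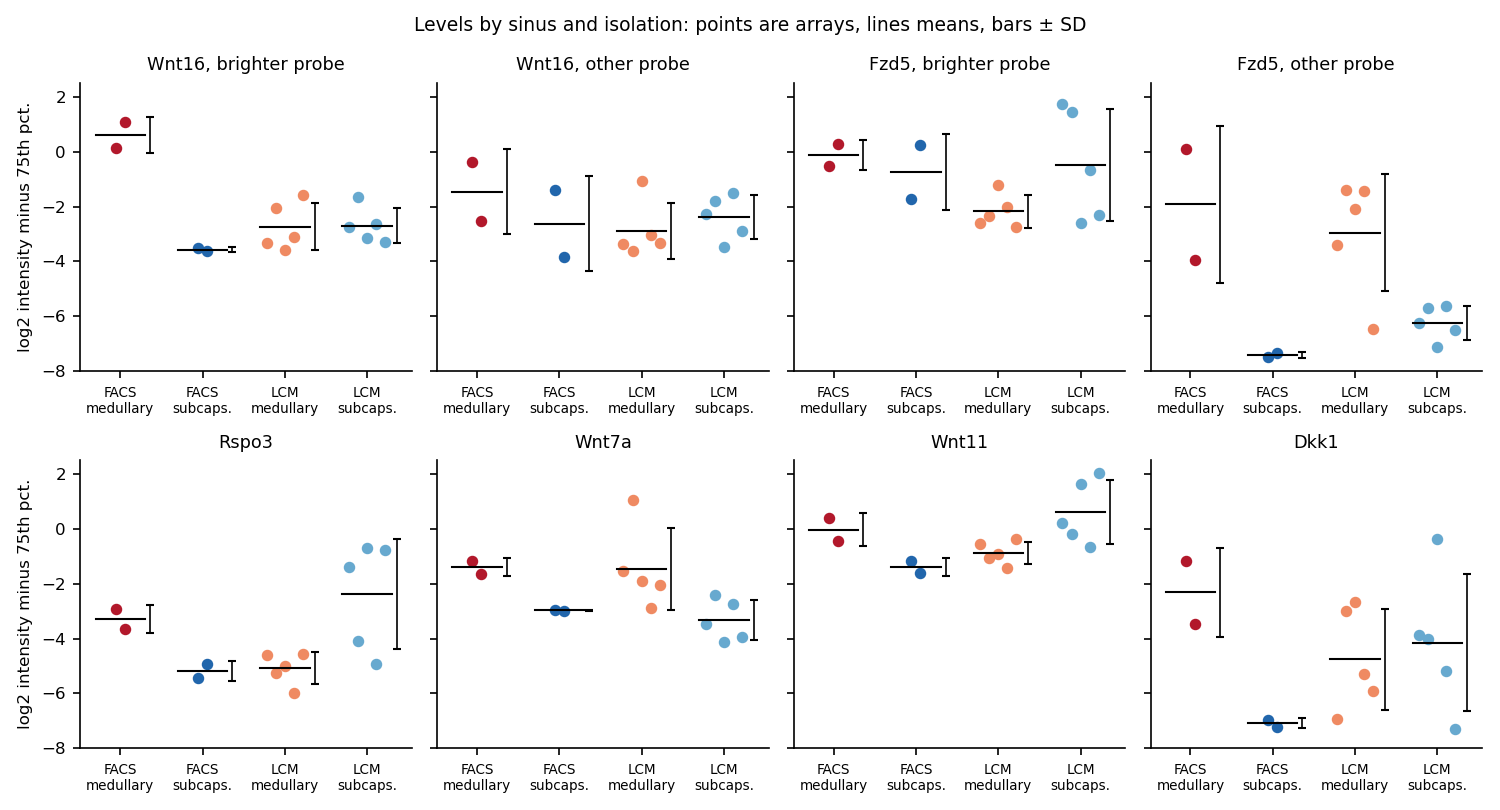
Level (log2 intensity minus the 75th percentile of the array) of 6 genes, with both probes for Wnt16 and Fzd5, in FACS medullary, FACS subcapsular, LCM medullary and LCM subcapsular samples; points are arrays, lines are means and bars are ± SD (n = 2, 2, 5 and 5). The brighter Wnt16 probe stood at 0.15 and 1.07 in FACS medullary samples and at or under −1.58 on every other array.

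From here on, FACS sinus differences are given without the median of all tested genes, 0.74, taken off, unless stated. Among the other ligands present on all arrays, Wnt6 stood at 2.03 and 2.79 in FACS medullary samples, against 0.69 and 0.58 in FACS subcapsular samples. The difference was 1.77 ± 0.61 (SE; limma, adjusted p = 0.151). The LCM medullary samples read 0.14, 0.24, −0.15, 1.40 and −0.05, against 0.75, 2.75, 0.39, 0.50 and −0.76 in LCM subcapsular samples. The LCM groups overlapped and differed by −0.41 ± 0.67 (SE; limma, adjusted p = 0.849).

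Wnt1, best known as the ligand that patterns the midbrain, varied least of the 41 within groups, with an SD of 0.34. It stood at 1.65 and 1.44 in FACS medullary and 0.71 and 0.47 in FACS subcapsular samples, with a difference of 0.95 ± 0.56 (SE; limma, adjusted p = 0.279). In LCM medullary samples it was 0.98, 1.03, 1.11, 1.03 and 0.63, against 0.94, 1.83, 0.53, 0.74 and 1.11 in LCM subcapsular samples. These overlapped, with a difference of −0.08 ± 0.44 (SE; limma, adjusted p = 0.965).

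Wnt4, a ligand needed for kidney tubules and the female reproductive tract, stood at 1.31 and 0.21 in FACS medullary samples, against −0.75 and −0.39 in FACS subcapsular samples. LCM medullary levels were −0.42, 0.50, 0.25, 0.44 and −0.34, against 0.15, 0.68, −1.08, −0.53 and −1.22 in LCM subcapsular samples. The difference was 1.33 ± 0.69 (SE) in FACS and 0.49 ± 0.53 (SE) in LCM, and neither passed (limma, adjusted p = 0.239 and 0.765).

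Wnt7a, Wnt11 and Wnt9b were singled out after their values were seen, because their unadjusted p was under 0.05 in a comparison. Wnt7a, the ligand that brain endothelium senses through Gpr124 and Reck, stood at −1.16 and −1.62 in FACS medullary samples, against −2.95 and −2.99 in FACS subcapsular samples. Laser-captured medullary samples gave −1.54, 1.08, −1.89, −2.89 and −2.04, against −3.46, −2.42, −4.11, −2.74 and −3.92 in subcapsular ones. The LCM medullary samples were mostly the higher ones, and 1 medullary sample lay below 2 subcapsular ones.

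The medullary mean of Wnt7a was higher in both isolations, by 1.58 ± 0.57 (SE) in FACS and 1.88 ± 0.75 (SE) in LCM. Neither passed after adjustment (limma, adjusted p = 0.158 and 0.385). Relative to the median of all tested genes, Wnt7a lay 0.84 higher in FACS and 1.79 higher in LCM. Within LCM the difference was 2.55 on slide 1 alone, 0.72 within row 1 (2 medullary and 4 subcapsular arrays) and 3.14 within row 2 (3 and 1). It was 1.24 without LCM medullary 2, and 0.84 with normexp, 1.10 with quantile normalization and 1.05 in the deposited table.

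Wnt11, a ligand of the β-catenin-independent branch, stood at 0.42 and −0.44 in FACS medullary samples, against −1.15 and −1.61 in FACS subcapsular samples. In LCM it was −0.55, −1.06, −0.90, −1.40 and −0.37 in medullary samples, against 0.24, −0.18, 1.65, −0.66 and 2.04 in subcapsular samples. The LCM medullary samples lay in the lower part of the range and overlapped with the subcapsular ones through 1 array.

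The difference of Wnt11 was 1.37 ± 0.65 (SE) in FACS and −1.48 ± 0.62 (SE) in LCM (limma, adjusted p = 0.215 and 0.395). The interaction was 2.84 ± 0.95 (SE; limma, adjusted p = 0.132), and no comparison passed. In LCM the difference was −1.46 on slide 1 alone, −1.15 within row 1 and −2.88 within row 2.

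Wnt9b, which starts nephron formation in the kidney, was above background on both FACS medullary arrays at −3.73 and −3.32, and on 0 of 2 FACS subcapsular arrays, where it read −5.61 and −7.05. It was at least 3.73-fold higher in FACS medullary samples, with means of −3.53 and −6.33 (limma, adjusted p = 0.123). It was present on 2 of 5 LCM medullary and 2 of 5 LCM subcapsular arrays and was not tested there. On its brighter probe, no other Wnt gene reached an unadjusted p under 0.05 in any comparison.

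The R-spondins were the sparsest family. Rspo3, which amplifies Wnt signals and is needed for the early vasculature of the mouse embryo, was above background on 2 of 2 FACS medullary, 0 of 2 FACS subcapsular, 2 of 5 LCM medullary and 3 of 5 LCM subcapsular arrays. Its level was −2.92 and −3.66 in FACS medullary samples, against −5.43 and −4.93 in FACS subcapsular samples. The LCM medullary samples read −4.58, −5.27, −4.99, −5.98 and −4.56, against −1.37, −4.10, −0.67, −4.94 and −0.77 in LCM subcapsular samples. In LCM, 4 subcapsular samples stood above all medullary ones and the other fell among them.

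The sinus difference of Rspo3 in LCM was −2.71 ± 0.89 (SE), 6.53-fold lower in medullary samples, with an unadjusted p of 0.0118 that did not pass after adjustment over all genes (limma, adjusted p = 0.303). The LCM difference was −2.58 on slide 1 alone, −2.50 within row 1 and −4.17 within row 2. In FACS it was at least 3.71-fold higher in medullary samples, with means of −3.29 and −5.18 (limma, adjusted p = 0.146). The interaction was not called (limma, adjusted p = 0.0971), and its size is not given because the FACS subcapsular level is only a bound. The interaction passed only with normexp background correction and without LCM subcapsular replicate 4 (limma, adjusted p = 0.0481 and 0.0482).

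Rspo1 was above background on 1 of 14 arrays, FACS medullary 6. It read −3.12 and −6.44 in FACS medullary samples, against −7.35 and −7.29 in FACS subcapsular samples, and lay between −7.04 and −4.56 in LCM. Rspo2 was above background on 2 arrays, the first FACS medullary and the second LCM subcapsular one. It read −2.33 and −6.46 in FACS medullary samples, against −5.60 and −6.76 in FACS subcapsular samples, and −7.04, −5.95, −4.67, −7.05 and −7.08 in LCM medullary samples, against −4.86, 1.23, −6.97, −6.81 and −6.29 in LCM subcapsular samples. Rspo4 was above background on FACS medullary 7 alone, at −3.87. All 3 are ligands of the same Lgr receptors as Rspo3, and none passed the filter for any comparison.

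Of the 10 Frizzled receptors, Fzd5 was the one present on all arrays. It is needed for blood vessels of the yolk sac and placenta in the mouse. Its brighter probe stood at −0.50 and 0.28 in FACS medullary samples, against −1.73 and 0.25 in FACS subcapsular samples. LCM medullary levels were −2.59, −2.33, −1.21, −2.0 and −2.74, against 1.75, 1.47, −2.61, −0.66 and −2.32 in LCM subcapsular samples. The groups overlapped in both isolations, with differences of 0.63 ± 0.93 (SE) in FACS and −1.7 ± 0.91 (SE) in LCM (limma, adjusted p = 0.637 and 0.497).

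The other Fzd5 probe, looked at after its values were seen, read otherwise. It stood at 0.12 and −3.94 in FACS medullary samples, against −7.50 and −7.34 in FACS subcapsular samples. Laser-captured medullary samples gave −3.40, −1.38, −2.07, −1.41 and −6.46, against −6.26, −5.70, −7.13, −5.61 and −6.50 in subcapsular ones. It was above background on 2 of 2 FACS medullary and 4 of 5 LCM medullary arrays, and on 0 of 2 FACS subcapsular and 0 of 5 LCM subcapsular arrays.

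With that probe Fzd5 was at least 11.9-fold higher in FACS medullary samples (means −1.91 and −7.42; limma, adjusted p = 0.126) and at least 3.86-fold higher in LCM medullary samples (means −2.95 and −6.24; limma, adjusted p = 0.239). Neither passed. The brighter probe starts at base 2015 of the transcript and the other at base 4507, so that the probes read different parts of the mRNA.

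Fzd6 and Fzd9, receptors with roles in hair patterning and in bone, switched between samples. Fzd6 stood at −4.17 and −0.51 in FACS medullary samples, against −4.18 and 1.73 in FACS subcapsular samples. In LCM it was −1.76, −3.28, −0.43, −7.19 and −6.06 in medullary samples, against 2.10, −3.49, 1.28, −6.93 and −6.34 in subcapsular samples. The levels spanned 9.29, with high and low samples in every group.

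Fzd9 stood at −1.50 and −3.37 in FACS medullary samples, against −1.88 and −6.33 in FACS subcapsular samples. The LCM medullary samples read −3.99, 2.17, −2.71, −5.84 and −4.44, against −3.0, −4.55, 2.08, 0.83 and −2.27 in LCM subcapsular samples. Neither receptor passed a comparison (limma, adjusted p from 0.494 to 0.995). The other 7 receptors were above background on 2 to 10 arrays each, and none had an unadjusted p under 0.05 on its brighter probe.

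Among the Dickkopf inhibitors, Dkk1 was seen on both FACS medullary arrays, at −1.15 and −3.46, and on neither FACS subcapsular array, where it read −6.97 and −7.22. LCM medullary levels were −6.93, −3.01, −2.66, −5.29 and −5.91, against −3.87, −4.00, −0.37, −5.17 and −7.29 in LCM subcapsular samples, with 2 and 1 arrays above background. Dkk1 was at least 9.05-fold higher in FACS medullary samples, with means of −2.30 and −7.09 and an unadjusted p of 0.00863 that did not pass after adjustment (limma, adjusted p = 0.0958). The interaction was not called (limma, adjusted p = 0.154), and its size is not given because the FACS subcapsular level is only a bound.

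Dkk2 stood at −6.68 and −1.64 in FACS medullary samples, against −4.26 and −3.04 in FACS subcapsular samples. Laser-captured medullary samples gave −2.28, −5.68, −6.91, −7.14 and −7.07, against −6.09, 0.80, −7.03, −2.87 and −0.82 in subcapsular ones. Present samples were seen in each group, 1 of 2, 2 of 2, 1 of 5 and 3 of 5 in that order, and the LCM difference was −2.62 ± 1.57 (SE; limma, adjusted p = 0.546).

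Dkk4 was the Dickkopf seen on most arrays, 13 of 14. It stood at −3.17 and −4.15 in FACS medullary samples, against −4.82 and −4.97 in FACS subcapsular samples. In LCM it was −4.03, −2.60, −1.48, −5.52 and −3.70 in medullary samples, against −3.03, −3.1, −4.48, −4.46 and −4.57 in subcapsular samples. The difference was 1.24 ± 0.65 (SE) in FACS and 0.46 ± 0.77 (SE) in LCM, and neither passed (limma, adjusted p = 0.244 and 0.851).

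Sfrp5 was the Sfrp present on all arrays. It stood at 1.23 and 0.23 in FACS medullary and 0.14 and −0.08 in FACS subcapsular samples. The LCM medullary samples read −0.40, −1.36, 0.24, −0.23 and −1.7, against −1.28, 0.77, −2.95, −2.67 and −1.16 in LCM subcapsular samples. The highest FACS medullary sample lay above all LCM samples, and the other 3 FACS samples lay in the upper part of the LCM range.

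Sfrp2 was above background on 1 of 2 FACS medullary, 0 of 2 FACS subcapsular, 4 of 5 LCM medullary and 2 of 5 LCM subcapsular arrays. Its level was −5.46 and −1.79 in FACS medullary samples, against −6.83 and −7.45 in FACS subcapsular samples. LCM medullary levels were −0.02, 0.20, −2.0, 0.53 and −7.20, against −6.27, −5.76, 0.81, −6.98 and −1.0 in LCM subcapsular samples. The LCM difference was 2.14 ± 1.88 (SE), with 4 high medullary samples and 2 high subcapsular ones (limma, adjusted p = 0.71).

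Sfrp4 stood at −3.78 and −5.27 in FACS medullary samples, against −4.24 and 0.35 in FACS subcapsular samples. Laser-captured medullary samples gave −4.71, −4.56, −1.85, −5.02 and 1.56, against −4.81, −4.26, −4.57, −5.43 and −4.22 in subcapsular ones. The difference was −2.58 ± 1.80 (SE) in FACS and 1.74 ± 1.17 (SE) in LCM (limma, adjusted p = 0.34 and 0.595), and each rested on single high samples.

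Between the sinuses in FACS, 0 of the 23 genes of these families that passed the filter were called at an adjusted p under 0.05 (limma), where 0% of all 27662 tested genes were called. At an unadjusted p under 0.05 there were 5 (Wnt16, Dkk1, Wnt9b, Rspo3 and Wnt6), or 21.7%, where the share of all tested genes was 31.9%. Dkk1, Wnt9b and Rspo3 passed the filter through the medullary arrays alone, where they were high, so their direction was partly set by the filter. The groups did not overlap for 16 of the 23, or 69.6%, against 69.7% of all tested genes. Over all 41 genes, without the filter, 35 means were higher in FACS medullary samples and the median difference was 1.28, against 0.86 over all genes, of which 64.0% were higher.

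Between the sinuses in LCM, 0 of 25 tested genes of these families were called (limma), where 0.175% of 27380 genes were called. At an unadjusted p under 0.05 there were 3 (Rspo3, Wnt7a and Wnt11), or 12%, close to the 11.7% of all tested genes. Rspo3 passed the filter through the subcapsular arrays alone. None of the 25 had groups that did not overlap, against 3.09% of all tested genes. Over all 41, 15 means were higher in medullary samples and the median difference was −0.42, against 0.03 over all genes. The direction over the tested genes followed the scaling: 10 of 25 were higher in LCM medullary samples with the scaling used here, against 17 of 25 when the percentile was taken over probes present on every array. Relative to the median of all tested genes, 10 of 25 were higher under both, 12 with normexp, and 6 with quantile normalization and in the deposited table.

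For the interaction, 1 of 28 tested genes of these families was called, Wnt16, where 1.3% of 29689 genes were called. At an unadjusted p under 0.05 there were 5 (Wnt16, Rspo3, Wnt11, Wnt9b and Dkk1), or 17.9%, against 21.3% of all tested genes. Wnt9b and Dkk1 passed the filter through the FACS medullary arrays alone. The plot of sinus differences shows most of the 41 genes right of 0 in FACS and spread around 0 in LCM.

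**Figure D4:**
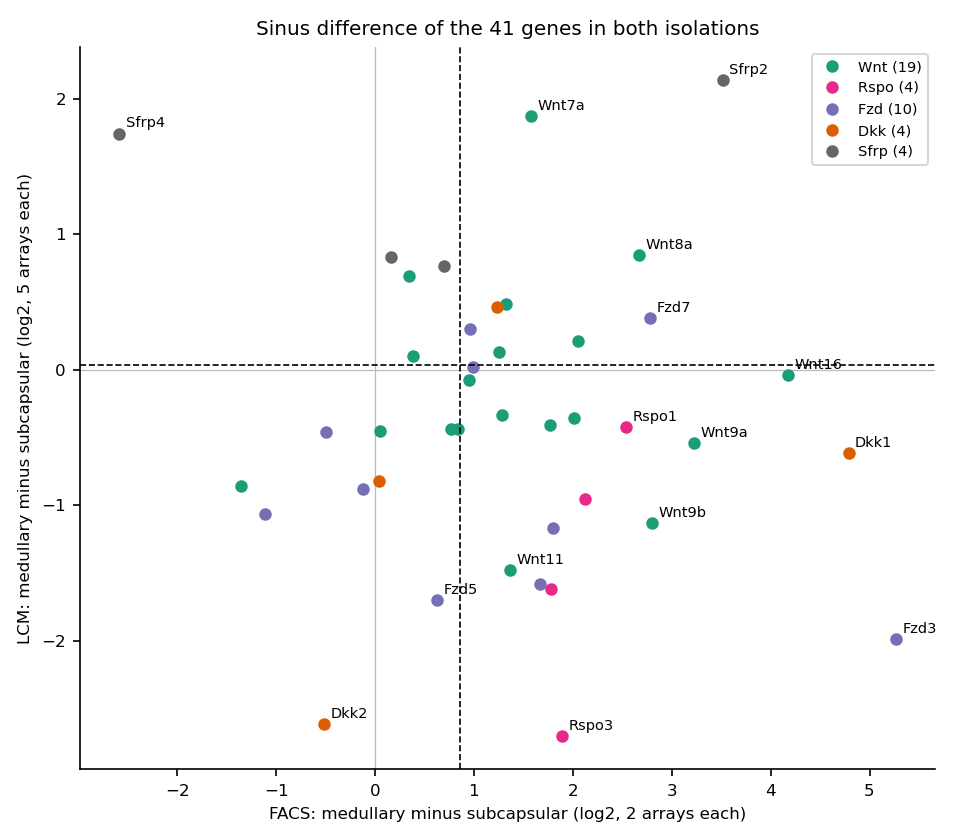
Medullary minus subcapsular difference of mean levels (log2) for the 41 genes in FACS (horizontal axis, 2 arrays each) and in LCM (vertical axis, 5 arrays each), coloured by family; dashed lines mark the medians of all genes, 0.86 in FACS and 0.03 in LCM. Of the 41, 35 lie right of 0 and 15 lie above 0.

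Between the isolations, 0 of 28 tested genes were called (limma), where 3.86% of 29689 genes were called. At an unadjusted p under 0.05 there were 2, Wnt16 and Sfrp5, or 7.14%, against 16% of all tested genes. Sfrp5 was 1.45 ± 0.58 (SE) higher in FACS, or 2.74-fold (limma, adjusted p = 0.224). On slide 2 alone, where the 2 FACS medullary arrays were set against 2 LCM medullary arrays, it was 1.7 higher in FACS. The FACS subcapsular arrays were left out of that comparison. Wnt16 was 1.23 ± 0.44 (SE) higher in FACS (limma, adjusted p = 0.17), with the FACS subcapsular pair at the low end of the LCM range. In the medullary comparison on slide 2 alone, Wnt16 was 2.95 higher in FACS. Over all 41 genes the median difference was 0.14, against 0.16 over all genes.

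The other genes of the pathway were read as 9 lists of 82 genes, 79 of them on the array, covering secretion, receptors, inhibitors, relay, nuclear factors, targets and planar polarity. In LCM, 1 of 67 tested genes was called higher in medullary samples and 0 lower, where 0.175% of all tested genes were called. At an unadjusted p under 0.05 there were 11, where the share of all tested genes was 11.7%. The called gene was Porcn, which encodes the enzyme that attaches the lipid without which Wnts are neither secreted nor active. Its level was −2.45, −0.70, 0.07, 1.03 and −0.19 in LCM medullary samples, against −4.29, −4.12, −5.70, −6.86 and −5.70 in LCM subcapsular samples. All 5 medullary arrays and 0 of the 5 subcapsular ones were above background, and the groups did not overlap.

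Porcn was at least 19.8-fold higher in LCM medullary samples, with means of −0.45 and −5.33 (limma, adjusted p = 0.0421). Its difference was 5.66 within row 1 and 4.67 within row 2 of the slides. The call was lost under 18 of 24 alternatives. Among them were quantile normalization, no filter, the slide as a block and 8 of 10 arrays left out in turn. Over all 24, medullary stayed higher, by 1.89 to 5.62 (limma, adjusted p from 0.00602 to 0.262). This direction was partly fixed in advance. Porcn entered the test through its medullary arrays alone, and leaving out 1 array cannot reverse groups that do not overlap. Some other alternatives leave the estimate unchanged. In FACS Porcn was −4.74 and 1.5 in medullary samples, the higher one above background, against −5.94 and −7.22 in subcapsular samples, and it was not tested. Wls, which carries Wnts to the surface, stood at −6.66 and −6.56 in FACS medullary samples, against −2.76 and −2.48 in FACS subcapsular samples, and was not called in FACS (at least 3.86-fold lower in medullary samples; limma, adjusted p = 0.0692) or in LCM (0.32 ± 1.31, SE; limma, adjusted p = 0.948).

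In FACS, 0 of 64 tested pathway genes were called (limma), and 22 had an unadjusted p under 0.05, where the share of all tested genes was 31.9%. The lowest p belonged to Lef1, a DNA-binding partner of β-catenin, at −5.09 and −4.69 in FACS medullary samples, against 3.94 and 4.36 in FACS subcapsular samples. It was present on neither FACS medullary array and at least 421-fold lower there, with means of −4.89 and 4.15 (limma, adjusted p = 0.0645). In LCM medullary samples Lef1 was 2.49, 1.69, 1.67, 3.1 and −4.07, against 2.63, −4.40, −2.25, −5.99 and 0.88 in LCM subcapsular samples, where the groups overlapped. Csnk1d, a kinase of the pathway's relay, followed at −3.09 and −3.1 in FACS medullary samples, against 2.81 and 3.41 in FACS subcapsular samples (difference −6.20 ± 0.59, SE; limma, adjusted p = 0.0645).

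For the interaction, 0 of 70 tested pathway genes were called higher and 2 lower, where 1.3% of all tested genes were called. Tcf7, another DNA-binding partner of β-catenin, stood at −0.79 and 0.46 in FACS medullary samples, against 4.69 and 4.18 in FACS subcapsular samples. In LCM it was 2.97, 3.81, 3.74, 3.81 and 3.91 in medullary samples, against 2.62, 0.07, 3.65, 3.96 and 3.69 in subcapsular samples. Its interaction was −5.45 ± 1.16 (SE; limma, adjusted p = 0.0422), and the call was lost under 16 of 27 alternatives (over all 27, limma, adjusted p from 0.0162 to 0.213).

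Lef1 and Tcf7 are also abundant in T cells. The summed level of 11 T cell markers was 19.8 and 24.3 in FACS medullary samples and 33.8 and 48.2 in FACS subcapsular samples, with all 11 above background on each of these arrays. It was 20.6 to 30.8 in LCM medullary and 13.1 to 45.6 in LCM subcapsular samples. Single T cell markers went both ways between the FACS groups. Cd3d (1.10 to 3.26 against 3.92 to 4.60), Cd3g, Cd8a, Cd28, Ccr7 and Il7r stood lower in FACS medullary samples. Cd4 (2.06 to 2.81 against 1.45 to 1.46), Cd3e and Lck stood higher there, and Cd5 and Cd8b1 overlapped. The part of T cells in the values of Lef1 and Tcf7 was not tested.

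Sox17, an endothelial transcription factor that modulates β-catenin, was above background on 0 of 2 FACS medullary, 2 of 2 FACS subcapsular, 4 of 5 LCM medullary and 0 of 5 LCM subcapsular arrays. It was at least 2.56-fold lower in FACS medullary samples (means −6.14 and −3.22; limma, adjusted p = 0.148) and at least 3.47-fold higher in LCM medullary samples (means −3.1 and −6.57; limma, adjusted p = 0.16). The interaction was called (limma, adjusted p = 0.038), and the call was lost under 14 of 27 alternatives (over all 27, limma, adjusted p from 0.0171 to 0.48). Its levels were −6.59 and −5.68 in FACS medullary samples, against −4.29 and −2.14 in FACS subcapsular samples. LCM medullary samples read −3.78, −2.02, −3.99, −4.93 and −0.78, against −6.12, −5.56, −7.03, −6.81 and −7.34 in LCM subcapsular samples. The other Sox17 probe was above background on 1 of 14 arrays.

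Between the isolations, 1 of 70 tested pathway genes was called higher and 1 lower in FACS, where 3.86% of all tested genes were called. Kremen2 encodes a receptor that Dickkopf proteins such as Dkk1 use against Lrp6. It was −3.38 and −4.94 in FACS medullary and −1.89 and 0.21 in FACS subcapsular samples. In LCM it was −5.58 to −4.04 in medullary and −5.11 to −3.61 in subcapsular samples. FACS was 2.12 ± 0.51 higher (SE; limma, adjusted p = 0.0349), with 3 of 4 FACS and 3 of 10 LCM arrays above background. Fat4, an atypical cadherin of planar polarity, was −2.60 and −6.65 in FACS medullary and −4.06 and −1.50 in FACS subcapsular samples, against −1.50 to 0.45 in LCM medullary and −1.15 to 1.87 in LCM subcapsular samples. It was 3.30 ± 0.79 lower in FACS on the log2 scale (SE; difference −3.30, limma, adjusted p = 0.0352). Kremen2 was not called under 16 of 27 alternatives and Fat4 under 11 of 27, the medullary arrays of slide 2 alone among them for both. Over all 27, limma gave an adjusted p from 0.0104 to 0.828 for Kremen2 and from 0.00311 to 0.319 for Fat4.

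**Figure D5:**
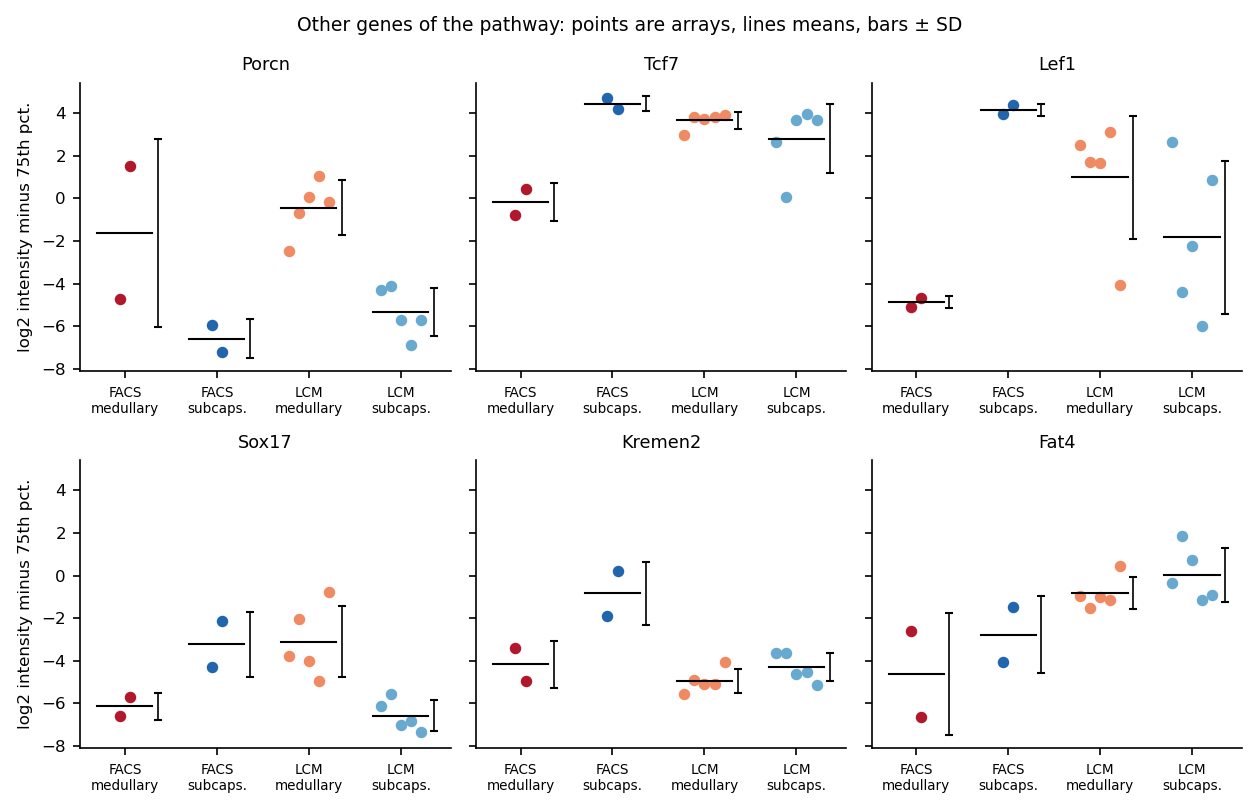
Level (log2 intensity minus the 75th percentile of the array) of Porcn, Tcf7, Lef1, Sox17, Kremen2 and Fat4 in FACS medullary, FACS subcapsular, LCM medullary and LCM subcapsular samples; points are arrays, lines are means and bars are ± SD (n = 2, 2, 5 and 5). Porcn lay between −2.45 and 1.03 in LCM medullary samples and between −6.86 and −4.12 in LCM subcapsular samples.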

How the data were processed

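Per the file headers, each array was read by the authors into 1 background-corrected intensity per spot, in arbitrary units, by Agilent Feature Extraction 10.7.3.1, and probe positions are on mm9. A deposited table holds log2 values of the same arrays with near-equal distributions on every array, with scale and centring unstated. Each of its columns matched its own array best, and it was used as an alternative.

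Intensities were log2 transformed, and each array's 75th percentile over non-control probes was subtracted. Spots marked as outliers were left out, spots of a probe were averaged, and a gene was its brightest probe by the array's own symbol. For a test in LCM a gene had to be above background on 3 or more of the 5 samples of a sinus, and in FACS on 2 of 2, with either sufficing over 14 arrays. The fits used limma (version 3.58.1, R 4.3.3). LCM and FACS had separate fits, and the interaction and FACS minus LCM came from a fit over 14 arrays with 4 group means and array weights by isolation. Calls needed an adjusted p (Benjamini-Hochberg, over all tested genes) under 0.05. A fold against a group absent from all its arrays is a bound, set against the lowest signal above background on each of its arrays, or the probe's own signal where higher. The steps were tested on simulated data.

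The genes, lists and tests were chosen with earlier results of these data known. The genes named with all values were those called in a comparison, those with separate LCM groups and an unadjusted p under 0.05 (none), the 3 with the highest mean in each family, and up to 5 that differed most between isolations at an unadjusted p under 0.05. Others are marked in the text. Of the pathway lists, called genes or the 2 with the lowest p were named. Slide 1 held the 5 LCM subcapsular arrays and LCM medullary 1 to 3, and slide 2 held LCM medullary 4 and 5 and the 4 FACS arrays. The number of arrays, 2 or 5 in a group, limits the precision, and p-values measure the spread between samples not tied to animals. Alternatives were other background corrections, scalings, filters, probes and blocks, and leaving out each array.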

Additional observations from a re-analysis of the deposited data

Results flagged for a closer look

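On its brighter probe Wnt16 had a sinus difference that differed between the isolations, by 4.218 on the log2 scale in FACS minus LCM (limma, adjusted p = 0.0393). That probe was higher in both FACS medullary samples than in all other samples. The call was lost with the other probe (1.674, limma, adjusted p = 0.447) and under other alternatives given above. Among 19 genes looked at in both LCM groups, 3 of 38 groups held a sample far from the others by Dixon's test, which chance gives in about 1 of 20 groups. Rspo2 was 1.230 in LCM subcapsular replicate 2, against −4.861 in the next sample. Wnt6 was 1.398 in LCM medullary replicate 4, against 0.241 in the next sample. Wnt1 was 0.625 in LCM medullary replicate 5, against 0.977 in the next sample. All 3 probes were well above background on these arrays.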

How the results depend on the processing

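All 16 single-gene differences that were followed in these 5 families kept their direction in all 334 alternatives. All but Wnt7a in FACS had an unadjusted p under 0.05 in the main fit. Some alternatives, such as the filter and the eBayes setting, leave the estimate itself unchanged. The shared direction was thus partly fixed in advance. No gene of the families was called in LCM under any of the 24 alternatives, by limma. In FACS, 2 (Wnt16 and Dkk1) were called with all 14 arrays in 1 fit, where the spread of LCM enters. For FACS minus LCM, 1 (Wnt16) was called with the percentile over probes present on every array. For the interaction, 2 were called with normexp, and 0 with the mean of probes, the other probe, no filter, the slide as a block, the row as a block, the replicate block, trend and robust eBayes, or no array weights, and 0 to 3 when 1 array was left out (2 without FACS medullary 6, 3 without FACS medullary 7). The causes were not tested. Over all genes, calls in LCM numbered 48, and 8 with normexp, 15 with quantile, 16 in the deposited table, 225 with the percentile over probes present on every array, 104 with the stricter filter, 127 with the slide block, 14 with the row block, 0 with the replicate block, 248 on slide 1 alone and 23 to 104 with 1 array left out (23 without LCM medullary 2, 97 without LCM medullary 4, 104 without LCM medullary 5, 100 without LCM subcapsular 5). In FACS, with 8830 genes at an unadjusted p under 0.05, there were 0 calls, and 1813 with trend and robust eBayes, 4508 with all 14 arrays in 1 fit, and 0 with any array left out. The interaction gave 386 calls, and 694 with normexp, 1155 with quantile, 1143 in the deposited table, 48 with the slide block, 170 with the row block, 0 with the replicate block, 109 without weights and 11 to 1278 with 1 array left out (1278 without FACS medullary 6, 1131 without FACS medullary 7, 108 without FACS subcapsular 6, 11 without FACS subcapsular 7). FACS minus LCM gave 1147 calls, and 184 with the slide block, 747 without weights and 0 on slide 2 alone, which compared medullary arrays only. It gave 613 to 1665 calls with 1 array left out (613 without FACS subcapsular 6, 631 without FACS subcapsular 7). Same-numbered samples showed little shared deviation (correlations −0.0237 to 0.0181), and in FACS, with 2 samples per group, both numbers give the same value. This cannot tell whether same-numbered samples came from the same animals. The replicate block left Wnt16's interaction at 4.218 (limma, adjusted p = 0.12). The replicate block could not be fitted for FACS minus LCM, nor the slide or row block for FACS. Medians of all tested genes moved with the scaling, from −0.16 to 0.81 in LCM and from 0.43 to 0.84 in FACS. Signal over background limits the tests: 16 of 41 were not tested in LCM and 18 in FACS.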

Other observations

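Wnt8b, a ligand with 2 probes, read differently on them. On the brighter probe, present on all 14 arrays, the medullary mean was 1.25 higher in FACS and 0.13 higher in LCM. On the other probe, present on 7 arrays, the difference was 3.06 in FACS and −2.07 in LCM, and each leaned on 1 high array. That probe read −4.24 and 0.65 in FACS medullary samples, against −4.73 and −4.99 in FACS subcapsular samples. The LCM subcapsular samples read −3.25, −4.14, −5.67, −5.26 and 1.16. It was above background on 1 of 5 LCM medullary and 2 of 5 LCM subcapsular arrays and was not tested there. The probes start at bases 3227 and 533 of the transcript. For Wnt1, both probes were present on all 14 arrays and gave 0.95 and 1.17 in FACS and −0.08 and −0.31 in LCM. For Wnt4, the probes gave 1.33 and 0.57 in FACS, and 0.49 and −1.04 in LCM. These genes' second probes were looked at after their values were seen, and no cause was tested.

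Marker lists of other cell types also differed between groups. Each sum can rest on 1 or 2 bright genes, and single markers of a list can go the other way. The summed level of 15 blood endothelial markers was 8.4 and 55.7 in FACS medullary and 93.9 and 240.8 in FACS subcapsular samples, and 240.3 to 396.7 in LCM medullary and 61.1 to 193.5 in LCM subcapsular samples. For 17 fibroblastic reticular markers it was 11.7 and 27.2 in FACS medullary and 26.7 and 28.9 in FACS subcapsular samples, and 61.4 to 119.8 in LCM medullary and 151 to 453 in LCM subcapsular samples. For 14 macrophage markers, with Marco the brightest in every group (5.85 to 6.58 in FACS medullary and 6.07 to 6.31 in FACS subcapsular samples on the log2 scale), it was 73.9 and 124.8 in FACS medullary and 108.5 and 115.8 in FACS subcapsular samples, and 83.8 to 182.8 in LCM medullary and 336 to 1522 in LCM subcapsular samples. For 9 B cell markers it was 79.2 and 156.8 in FACS medullary and 198.8 and 311.9 in FACS subcapsular samples, and 127.3 to 208 in LCM medullary and 247 to 751 in LCM subcapsular samples. For 10 smooth muscle markers it was 802 and 949 in FACS medullary and 463 and 496 in FACS subcapsular samples. LCM sums of these markers were 504 to 789 in medullary and 517 to 1667 in subcapsular samples. Nearly the whole smooth muscle sum was Mcam in every group. On the log2 scale Mcam stood at 9.62 to 9.87 in FACS medullary and 8.83 to 8.93 in FACS subcapsular samples. In LCM Mcam stood at 8.95 to 9.59 in medullary and 8.98 to 10.67 in subcapsular samples. For 8 adipocyte markers the summed level was 9.74 and 11 in FACS medullary and 23.2 and 25.3 in FACS subcapsular samples. LCM sums were 14 to 27.7 in medullary and 5.59 to 68.8 in subcapsular samples. The FACS subcapsular sum lay mostly in Fabp4, at 4.36 to 4.45 on the log2 scale, against 0.27 to 1.03 in FACS medullary samples. Plin1, Cidec, Lep, Pparg and Retn stood higher in FACS medullary than in FACS subcapsular samples, and Adipoq and Cfd overlapped. The part of all these lists in the values of the Wnt genes was not tested.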
